A study of Homo sapiens with 2 samples.

Results

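The MARVEL-domain membrane proteins described here are MAL2 and 9 of its relatives, namely MAL, MALL and PLLP of the MAL family, CMTM3, CMTM4, CMTM6, CMTM7 and CMTM8 of the chemokine-like factor family, and MARVELD2. They were chosen by name, with their differences in these data already known, and every probe set that the platform annotation gives exactly 1 of these symbols was taken. This gave 19 of 54675 probe sets, groups of short probes that together give 1 value per array, for 10 of 19775 genes. The study measured total RNA of Panc1, an established human pancreatic ductal adenocarcinoma line, on Affymetrix expression arrays. A population labelled Panc1/mock, stably carrying the empty vector, was set against a population labelled Panc1/syk-wt, described as a stable transfectant of the wild-type tyrosine kinase SYK. Both were kept under hygromycin selection and passaged for 2 months with no other treatment, and the series title calls the mock cells drug-resistant. Each is a single stable population with 1 array, so no value below has a replicate, no difference has a test, and population, RNA preparation and array cannot be told apart.

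MARVEL domains are bundles of membrane-spanning helices found in proteins that organise cholesterol-rich membrane patches, vesicles and cell junctions. In polarised epithelia, MAL and MAL2 serve the delivery of proteins to the apical surface, MAL2 acting in transcytosis, the transport of cargo across the cell from the basolateral side. CMTM proteins bind receptors and ligands at the cell surface and affect their stability or recycling, and MARVELD2, tricellulin, seals the points where the tight junctions of neighbouring cells meet.

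Levels are log2 intensities as deposited, and a difference is syk minus mock on that scale. Probe sets respond unequally, so levels of different genes have no order here. The arrays correlated at r = 0.98 across all probe sets, and their medians were 4.26 (mock) and 4.24 (syk). Among 27 probe sets against bacterial transcripts the highest value was 4.77, which is used below as a floor for dim signal. A fold against a value at or below it is given as "at least". Probe sets of the same gene differed among themselves with a pooled SD of 0.35 in that difference (6028 genes), which gives a rough scale for precision but covers no variation between cultures. SYK signal gave no clear check of the labels: its 4 probe sets stayed below the floor throughout, with 4.27 for mock and 4.73 for syk in the brightest (0.46) and differences of -0.27, -0.07 and -0.09 in the others. Directions below therefore rest on the labels. ACTB control probe sets had a 3' minus 5' difference of 1.95 (mock) and 2.37 (syk), and those of GAPDH 0.19 (mock) and 0.32 (syk). The part of RNA integrity in the differences below was not tested. All 5 epithelial markers were above the floor on the mock array, from 6.34 (CDH1) to 13.3 (KRT18). On the syk array they ran from 3.47 to 13.1, with CDH1 (E-cadherin) and KRT19 at least 2-fold lower by their brightest probe sets (-0.46 and -0.37 by their other ones) and EPCAM differing by 0.30. The sum of the 5 levels was 48.4 on mock and 43.4 on syk. The part of this difference in the values below was not tested. Of the other cell types, all 4 measured leukocyte and all 4 measured endothelial markers lay at or below the floor on both arrays, as did 3 of 5 fibroblast markers and 2 of 3 measured markers of myelinating glia. By its brightest probe set the fibroblast marker COL1A1, a collagen chain, read 11.2 on mock and 10.1 on syk (2.13-fold lower). Its 5 probe sets differed by -1.09 to -0.09. THY1 read 5.16 and 5.21 by its brightest. The glial marker MBP read 10.1 and 10.8 (1.56-fold higher) by its brightest, and its 9 probe sets went in both directions, from -0.53 to 0.67.

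MAL2 had the only difference of at least 2-fold among the members. Of the 9 members that passed the filter on brightness (a mean over both arrays at or above 4.25, the 50th percentile of all probe sets), 1 had a 2-fold higher value, 0 had a 2-fold lower value and 8 stayed under that threshold. The same threshold was passed by 7.26% of the 12814 genes past the filter, 3.61% higher and 3.65% lower. At 1.5-fold, MAL2, MARVELD2, MALL and PLLP passed, that is 4 of 9 members by measured values, beside 22.7% of all genes past the filter. PLLP would not pass with its mock value at the floor. CMTM3, 1.4995-fold lower, lay just under this threshold and would pass it with a lowess trend across brightness removed (-0.61). Of all 19 member probe sets, dim ones included, 1 passed 2-fold, beside 3.54% of the 54675 on the array. Since the members were chosen with these differences known, nothing is read from these comparisons. The members' median difference was -0.26, or -0.35 without MAL2, beside 0.01 over all genes past the filter. MAL2 passed the filter through its syk value, and MAL did not pass it.

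**Figure D1:**
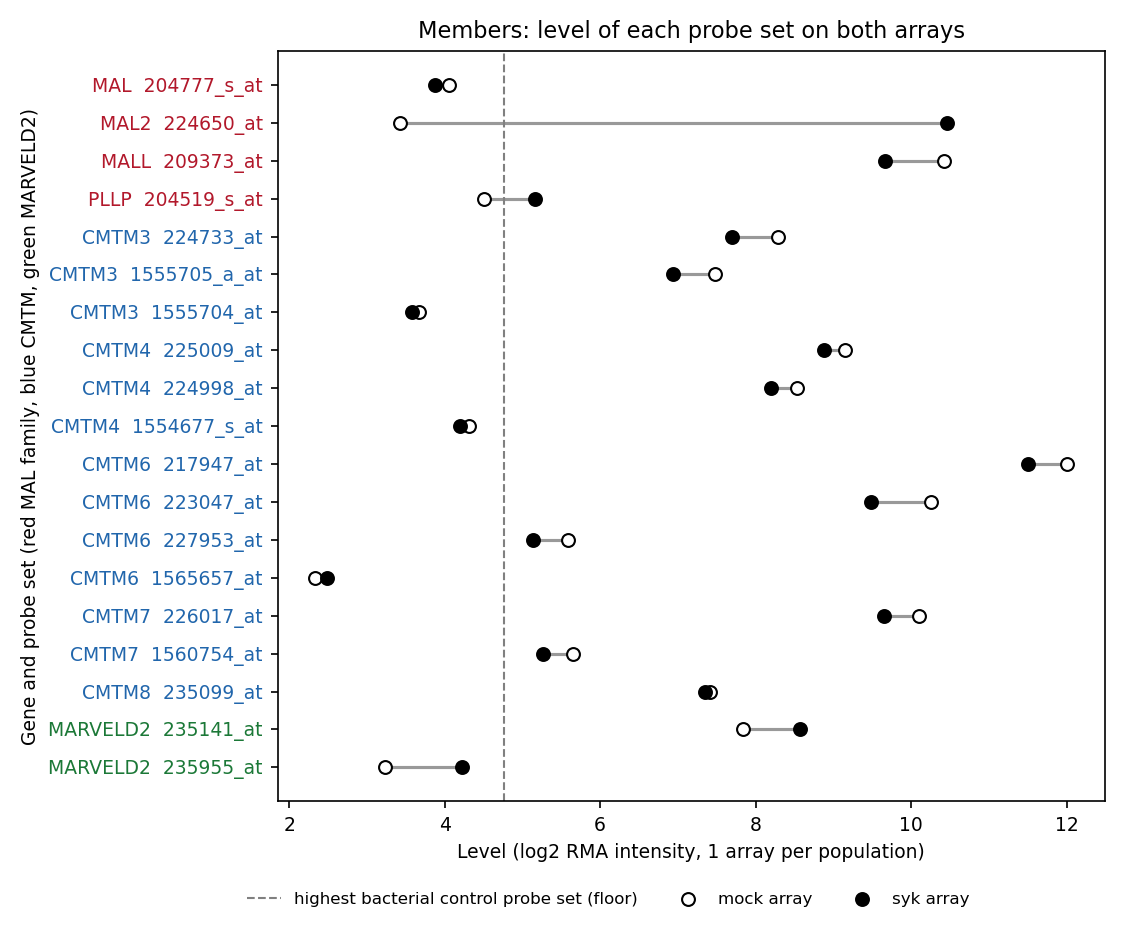
Level of the 19 member probe sets (log2 RMA intensity) on the mock array (open circles) and the syk array (filled circles), 1 array each. The dashed line is the floor at 4.77. MAL2 crosses from 3.42 to 10.5, MARVELD2 and PLLP lie further right on the syk array, and the CMTM probe sets above the floor all lie further left on it.

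MAL2 read 3.42 on mock and 10.5 on syk. It was thus below the floor on 1 array and far above it on the other. The measured difference was 7.04, and against the floor MAL2 was at least 52.0-fold higher on the syk array. With the floor at the second highest bacterial control (3.61) the bound would be 116-fold, so the size of the fold depends on where dim signal is set, and its direction does not. MAL2 has 1 probe set on this array, and no second one was at hand to set beside it. More RNA per cell and a larger share of cells with MAL2 RNA cannot be told apart in such a bulk measurement.

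The other MAL family genes did not share this size of difference. MALL, a close relative of MAL, read 10.4 on mock and 9.67 on syk, a difference of -0.75 (1.68-fold lower). Its signal was far above the floor on both arrays, and 6.78% of all genes past the filter had a lower difference. PLLP, plasmolipin, a proteolipid of myelin and of kidney and gut epithelia, read 4.51 on mock and 5.16 on syk. The mock value lay below the floor, and PLLP was at least 1.32-fold higher on the syk array. MAL, the founding member, first described in T cells and also a myelin protein, read 4.06 and 3.88, both at or below the floor, so no fold is given. In the mock population MALL was therefore the MAL family gene with signal clearly above the floor, and in the syk population MALL and MAL2 both had it.

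All 5 CMTM members had lower values on the syk array by their brightest probe set, and none by 2-fold. Of their 13 probe sets, 10 were above the floor on both arrays, and all 10 had negative differences, from -0.78 to -0.07 with a median of -0.45. Among all 22033 probe sets above the floor on both arrays, 49.2% had a negative difference. That share is given for scale only, as the members were chosen with their direction known. The other 3 CMTM probe sets were at or below the floor on both arrays and are not ordered. The direction was not shared by CKLF, the chemokine-like factor gene, a neighbour of CMTM3 that is not a member. CKLF read 9.61 on mock and 9.73 on syk, with a difference of 0.12 in each of its 2 probe sets.

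CMTM6, which binds the immune checkpoint ligand PD-L1 and protects it from degradation, was far above the floor on both arrays. Its brightest probe set read 12.0 on mock and 11.5 on syk, a difference of -0.50. Its next probe set went from 10.3 to 9.48 (1.72-fold lower), and a dimmer one went from 5.59 to 5.14 (-0.45). All 3 differed by more than the pooled SD among probe sets of a gene, while the remaining one (2.33 and 2.48) was below the floor on both arrays. CMTM4, which can take over the PD-L1 role of CMTM6, read 9.15 on mock and 8.89 on syk by 1 probe set and 8.53 and 8.20 by another. These differences, -0.26 and -0.33, stayed under the pooled SD. CD274, the gene of PD-L1, lay at or below the floor on both arrays (4.31 and 4.11).

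CMTM3, a modulator of EGF receptor traffic, read 8.29 on mock and 7.70 on syk, and its second probe set 7.48 and 6.93. The differences of -0.58 and -0.55 lay close together, and 10.6% of all genes past the filter were lower than the first. CMTM7, which takes part in B cell receptor assembly and in EGF receptor internalisation, read 10.1 on mock and 9.65 on syk. Its dimmer probe set read 5.65 and 5.27, so the differences were -0.44 and -0.38. CMTM8, also linked to EGF receptor endocytosis, read 7.41 and 7.35, and its difference of -0.07 was well within the spread among probe sets of a gene. EGFR itself differed by -0.27 in its brightest probe set, with 9 probe sets between -0.51 and 0.54.

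MARVELD2 went in the other direction from the CMTM genes. Its brighter probe set read 7.84 on mock and 8.57 on syk, which is 1.66-fold higher, and 91.9% of all genes past the filter had a lower difference. Its second probe set read 3.23 and 4.22, a difference of 0.99 at or below the floor on both arrays, to which no fold is given. OCLN, occludin, is the MARVEL-domain protein of bicellular tight junctions and the next gene to MARVELD2 on chromosome 5. It read 10.2 on both arrays, with a difference of -0.01 in its brightest probe set and 4 probe sets between -0.48 and 0.18. LSR, which recruits MARVELD2 to tricellular contacts, read 4.69 on mock and 7.23 on syk and was at least 5.51-fold higher by its single probe set.

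**Figure D2:**
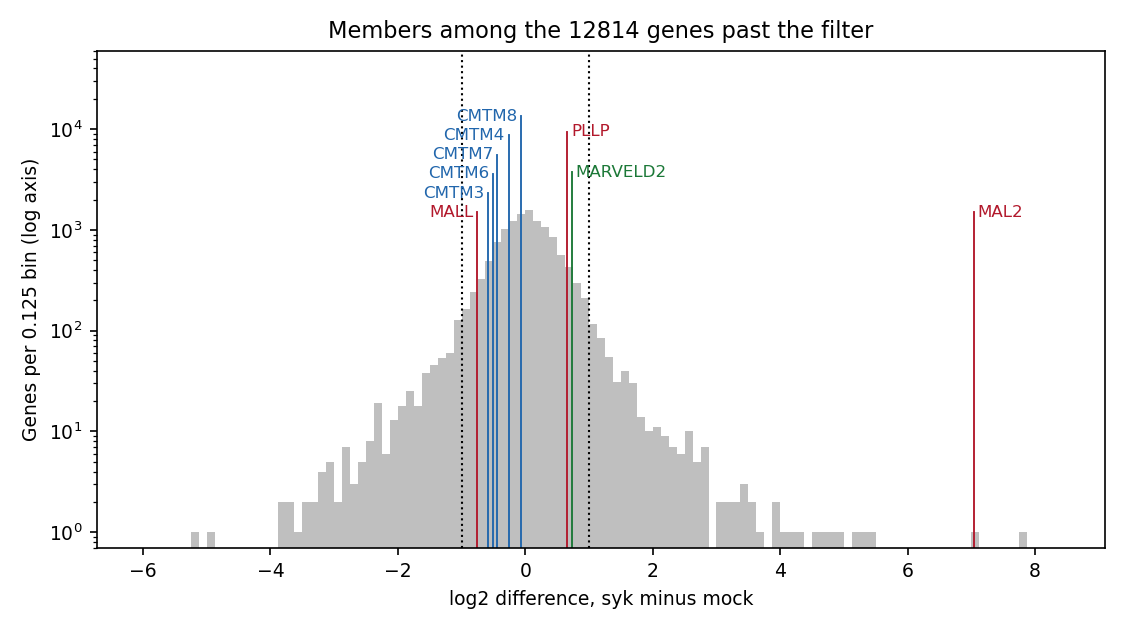
Histogram of the log2 difference, syk minus mock, over the 12814 genes past the filter (log count axis), with the 9 members past it marked by lines whose heights carry no value. Dotted lines mark 2-fold. MAL2 at 7.04 lies in the far right tail, and the other 8 lie between -0.75 and 0.73, a range that holds 85.1% of all genes past the filter.

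The position of MAL2 set it beside other genes with large differences. In RefSeq gene order (GRCh38.p14), MAL2 on chromosome 8 lies between COLEC10 and CCN3, with TNFRSF11B on the far side of COLEC10. Of the 10 protein-coding neighbours on each side, 19 of 20 were measured and 13 passed the filter. Of these 13, 4 were at least 2-fold higher on the syk array, beside 3.61% of all genes past the filter. In the other direction 0 passed 2-fold, beside 3.65%. This neighbourhood was looked up after the values of MAL2, TNFRSF11B and CCN3 were known, so the count is a description. TNFRSF11B and CCN3, like MAL2, passed the filter through their syk values, so the 2 shares are not alike in how genes entered. Without the filter the count was also 4.

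TNFRSF11B (osteoprotegerin, a decoy receptor for the TNF family ligand RANKL) read 3.01 on mock and 10.8 on syk and was at least 66.3-fold higher. Its second probe set, from 3.58 to 8.52, gave at least 13.5-fold. CCN3, a secreted matricellular protein, went from 2.78 to 8.14 and was at least 10.4-fold higher. Its other probe set, from 4.11 to 5.84, gave at least 2.10-fold. Like MAL2, both were below the floor on the mock array in all their probe sets. DEPTOR, an inhibitor of mTOR kinase complexes, read 6.59 on mock and 9.31 on syk, which is 6.58-fold higher. SAMD12 read 6.09 and 8.69, which is 6.04-fold higher. For DEPTOR and SAMD12 the second probe set lay at or below the floor on both arrays.

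The differences in this stretch were not even. Between these genes, COLEC10 (3.25 and 3.20) and ENPP2 (3.16 on both arrays) were at or below the floor on both arrays, as were 6 of the 19 measured neighbours in all. Among the 9 neighbours past the filter and under 2-fold by the brightest probe set, the highest such difference was 0.87 (MRPL13). RAD21 differed by -0.19, and HAS2 read 4.85 on mock and 4.13, below the floor, on syk. The 4 probe sets of UTP23 ran from 0.38 to 1.17, so its highest passed 2-fold. Those of EXT1 ran from -0.04 to 0.96 and those of DSCC1 from -0.27 to 0.80. TAF2, a general transcription factor subunit between CCN3 and DEPTOR, differed by 0.11. Of the 13 past the filter, TNFRSF11B and CCN3 included, 11 had a positive difference. The 2 below 0 stand beside 47.8% below 0 among all genes past the filter. The median was 0.73, beside 0.01 over all genes past the filter. TNFRSF11B and CCN3 raise that median and passed the filter through their syk values, so nothing is read from these comparisons.

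**Figure D3:**
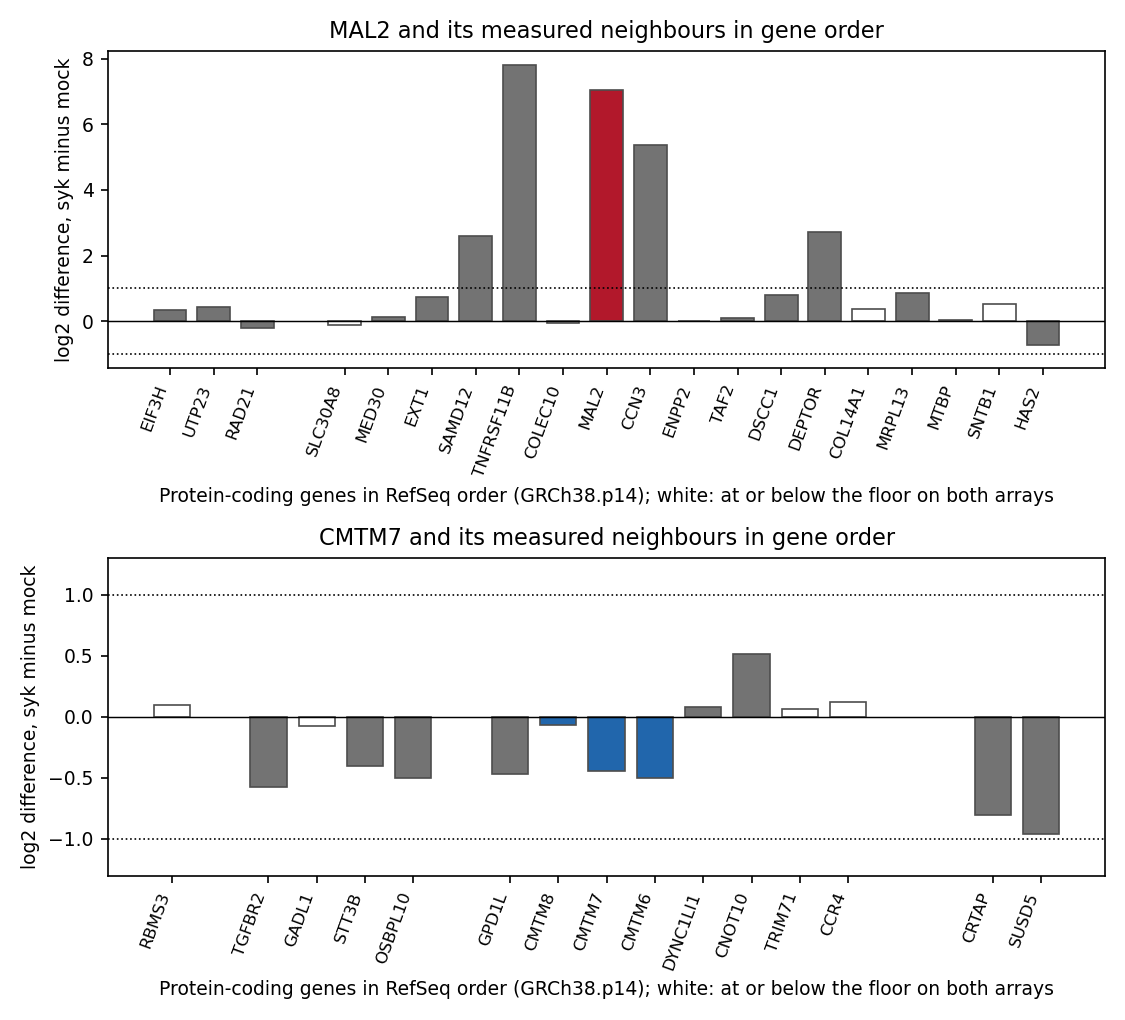
log2 difference, syk minus mock, of the brightest probe set of each measured gene among the 10 protein-coding neighbours on each side of MAL2 (upper panel) and CMTM7 (lower panel), in RefSeq order. White bars are genes at or below the floor on both arrays, coloured bars are members, gaps are genes not measured, and the bars of TNFRSF11B, MAL2 and CCN3 are measured values, for which the text gives lower bounds. The upper panel shows 5 tall bars, MAL2 among them, with low bars between them, and the lower panel shows CMTM8, CMTM7 and CMTM6 in a stretch where most genes above the floor are below 0.

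CMTM8, CMTM7 and CMTM6 lie next to each other on chromosome 3. Of the neighbours of CMTM7 other than members, 8 passed the filter, and 6 of these were below 0, against 47.8% of all genes past the filter. Their median was -0.49, close to the differences of CMTM7 (-0.44) and CMTM6 (-0.50) but not to that of CMTM8 (-0.07). Of these 8, 0 passed 2-fold by the brightest probe set, beside 7.26% of all genes past the filter. TGFBR2, the TGF-beta type II receptor, differed by -0.57 and CRTAP, a collagen-modifying protein, by -0.80. The 5 probe sets of CRTAP ran from -1.45 to -0.57, so its lowest passed 2-fold, and the 5 of OSBPL10 from -0.50 to 0.43. The 2 above 0 by the brightest probe set were DYNC1LI1 (0.08) and CNOT10 (0.51), the genes that follow CMTM6. CMTM4 and CMTM3 adjoin each other on chromosome 16, where the surroundings differed: the 8 neighbours of CMTM3 past the filter had a median of 0.24, and 2 of them were below 0. Around MARVELD2 the 10 neighbours past the filter had a median of -0.06, with 0 past 2-fold.

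Promoter windows from RefSeq (GRCh38.p14, the 250 bases before each annotated start) were matched for 9 members, all but MAL2, in 12 windows, of which CMTM3 has 3 (2 of them overlapping) and MALL 2. Windows of MARVELD2, the member above the floor on both arrays with a positive difference, and of CMTM6 and CMTM7, neighbours that were both lower, are shown, read 5′ to 3′ on the gene's strand. Capitals mark the GC-box GGGCGG, bound by SP-family factors, on either strand, and copies may overlap.
MARVELD2, chr5:69414866-69415115, plus strand: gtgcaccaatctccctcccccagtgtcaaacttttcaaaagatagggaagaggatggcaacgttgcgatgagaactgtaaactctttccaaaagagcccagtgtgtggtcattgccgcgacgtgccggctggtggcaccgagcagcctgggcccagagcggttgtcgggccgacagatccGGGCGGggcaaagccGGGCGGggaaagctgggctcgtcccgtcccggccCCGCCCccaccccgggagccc
CMTM6, chr3:32502853-32503102, minus strand: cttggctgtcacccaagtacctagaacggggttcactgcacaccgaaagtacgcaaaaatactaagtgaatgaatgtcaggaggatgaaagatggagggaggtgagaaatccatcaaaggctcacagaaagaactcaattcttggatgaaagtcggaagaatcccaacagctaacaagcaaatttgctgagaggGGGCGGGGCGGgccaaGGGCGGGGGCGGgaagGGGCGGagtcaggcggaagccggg
CMTM7, chr3:32391603-32391852, plus strand: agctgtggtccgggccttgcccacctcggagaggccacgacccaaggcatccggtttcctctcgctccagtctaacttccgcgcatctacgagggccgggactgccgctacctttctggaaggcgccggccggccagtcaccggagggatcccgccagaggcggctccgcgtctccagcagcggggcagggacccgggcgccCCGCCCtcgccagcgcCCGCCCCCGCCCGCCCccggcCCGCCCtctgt

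These windows held 3, 5 and 5 copies of the GC-box. In CMTM6 and CMTM7 all copies lay within the last 56 bases before the start. At least 1 copy was found in 10 of the 12 member windows, covering each of the 9 matched members, against 42.6% of all 35116 promoter windows of the same length. The share of G and C was 64.4% in the MARVELD2 window, 53.6% in that of CMTM6 and 74.4% in that of CMTM7, beside a median of 58.0% over all windows, and no count was adjusted for it. The E-box CAGGTG, bound by SNAI and ZEB repressors and searched on both strands, was in 1 window each of PLLP, CMTM3, CMTM4 and CMTM8, that is 4 of 12 windows, against 17.5% of all windows. TATAAA on either strand was in 0 of 12 windows (10.7% of all), and the Grainyhead-like motif AACCGGTT was in 0 (0.117% of all). The GC-box was thus present in windows of matched members with negative differences and of MARVELD2 and PLLP, with positive ones.

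Of the 16 other MARVEL-domain genes measured, 10 passed the filter, 1 of these differed by 2-fold or more (beside 7.26% of all genes past the filter), and 0 did so upward. That gene was SYNGR3, a synaptic vesicle protein, which read 8.41 on mock and 7.01 on syk and was 2.64-fold lower by its single probe set. The list's median was -0.11, beside 0.01 over all genes past the filter, and 8 of the 10 were below 0, beside 47.8% of all genes past the filter. MYADM, a MARVEL protein of membrane rafts, was under 2-fold at -0.91, with its other probe set also at -0.91, and was named after its value was seen. CMTM1, CMTM2 and CMTM5, the CMTM genes that are not members, were at or below the floor on both arrays.

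Genes of apical and transcytotic transport, the route in which MAL2 acts, had differences in both directions. Of 30 measured, 26 passed the filter, 2 were at least 2-fold higher (beside 3.61% of all genes past the filter), 0 passed that threshold downward (beside 3.65%), and the median was 0.04. These counts use the brightest probe set of each gene, and the lowest of the probe sets of RAB11A and EHD1, which act in recycling endosomes, differed by -1.16 and -1.13. STX3, the syntaxin of the apical plasma membrane, read 9.05 on mock and 10.3 on syk and was 2.32-fold higher, with its 3 probe sets between 1.04 and 1.41. VPS37A, a subunit of the ESCRT-I sorting complex, read 6.31 and 7.35 and was 2.06-fold higher, with 0.51 as the difference of its other probe set. The known MAL2 partners were under 2-fold, TPD52 at -0.35 and the formin INF2 at 0.41 by their brightest probe sets. The 5 probe sets of TPD52 ran from -0.45 to -0.03, and the 4 of INF2 from -0.27 to 0.41. In the list of junction contact partners 6 of 9 measured genes passed the filter. LSR was the 1 gene past 2-fold, beside 7.26% of all genes past the filter, and the list median was -0.12.

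**Figure D4:**
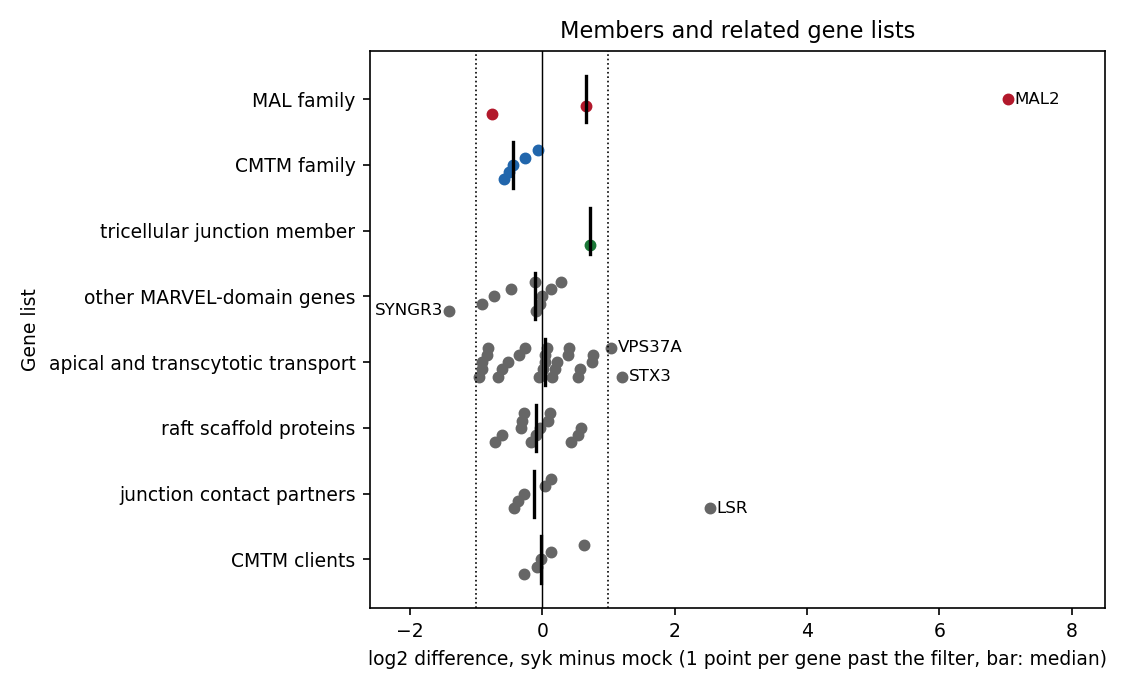
log2 difference, syk minus mock, of each gene past the filter (1 point per gene) in the member groups and in the 5 lists of related genes, with each list's median as a bar. Genes past 2-fold (dotted lines) carry their names. MAL2 and LSR lie far to the right of their lists, and the CMTM points all lie below 0.

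By the fixed measure of likeness, the distance between pairs of levels on the 2 arrays, the 5 genes nearest to MAL2 outside the lists were TNFRSF11B, SCD5, MTUS1, FLRT3 and PTGS2. All 5 were at or below the floor on the mock array, as was MAL2, so the distances (0.54 to 1.99 log2 units) rest in part on dim signal and their order is not read. The measure sets levels of different probe sets side by side over 2 arrays, and is given as a description only.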

How the data were processed

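For each of 54675 probe sets, the deposited table gives 1 value on either array. RMA, with no version or settings, is the tool in the submitters' processing notes, and the authors' values were taken as log2 intensities from their range (2.14 to 14.6). Scanner files and detection calls were not used here. Differences between dim signals are compressed by RMA. Names came from the platform annotation where it gives 1 symbol (41097 probe sets), and 41043 of these matched a current RefSeq gene ID.

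A gene was represented by the probe set brightest on average over the arrays, entered counts at an average of 4.25 or more, and was counted at a log2 difference of 1 or more (2-fold) in either direction. Of each list of related genes, up to 4 genes past 2-fold were named, the largest first, and other names are marked or are members, neighbours or partners of members. The members, lists and floor were chosen with earlier results of these data known. With 1 array per group there is no test, and the number of arrays limits the precision. Alternatives covered scaling, a lowess trend (span 0.2), the choice of probe set, the filter, the floor and the threshold. The calculation was tested on simulated data. Python 3.11.15, pandas 2.3.3 and statsmodels 0.14.6 were used.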

Additional observations from a re-analysis of the deposited data

How the results depend on the processing

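The MAL2 difference of 7.04 was 5.70 with both arrays floored at the highest bacterial control, and stayed within the pooled SD of 0.35 under its other 6 alternatives. The count of members past 2-fold was 1 under every alternative run on scaling, probe set, filter and floor, and 4 by measured values at a 1.5-fold threshold, which 22.7% of all genes past the filter also passed. The count of member probe sets past 2-fold was 2 with median centring of each array, where the dim MARVELD2 probe set crossed the threshold, and 6 at 1.5-fold. CMTM3, CMTM4, CMTM6, CMTM7, CMTM8, MALL and MARVELD2 kept their sign in 7 of 7 alternatives each, and PLLP in 6 of 6. Many of these alternatives could not move a gene. For CMTM8 and MALL, with 1 probe set above the floor, only the scaling changed the value. A kept sign is therefore no measure of precision, and CMTM8, from -0.09 to -0.05, stayed well within the pooled SD. MAL, dim on both arrays, was 0 with the floor at 4.77. The neighbours of MAL2 at least 2-fold higher numbered 4, with 3 at the filter on the 75th percentile and 7 at 1.5-fold, a result added after the gene order had been looked up. With no replicates, no paired analysis or left-out sample was possible. Dim signal limits MAL, PLLP and the mock level of MAL2.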

Other observations

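Raft scaffold proteins, which share cholesterol-rich membrane with MAL proteins, stayed under 2-fold by the brightest probe set in all 13 genes past the filter. Over all genes past the filter 7.26% passed 2-fold, so nothing is read from this count. The median of the 13 was -0.10. CAV2, a caveolin, read 10.8 on mock and 10.1 on syk (-0.71), and CAVIN1, the coat protein of caveolae, 10.1 and 9.46 (-0.62). Each also had a probe set past 2-fold, at -1.01 for CAV2 and -1.03 for CAVIN1. The flotillins FLOT1 and FLOT2 differed by -0.31 and -0.18, and the prohibitin PHB1 by 0.54. These names were chosen after their values were seen. Of 9 genes whose products are bound or affected by CMTM proteins, 5 passed the filter. Of these, 0 passed 2-fold, beside 7.26% of all genes past the filter, so nothing is read from this count. Their median was -0.01. CD274 and PDCD1LG2, the ligands of the PD-1 receptor, lay at or below 4.77 on both arrays.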
